A study of Drosophila melanogaster with 2 samples.

Results

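Meics (FBgn0025874) is the gene whose tagged protein was immunoprecipitated in these flies, and the data are described here for that gene and the 20 kb on either side of it. It was chosen by name as the targeted gene, 1 of 13945 protein-coding genes on the 6 chromosome arms. Every region with its summit in the 42045 bp neighbourhood was taken from 4 deposited lists on the dm6 build. These were 1 of the 7689 regions of the list thresholded by irreproducible discovery rate (IDR), 12 of the 30000 regions of the pooled list, 19 of the 30000 of replicate 1 and 8 of the 30000 of replicate 3. The only group, Meics-GFP, was a transgenic line that stably expresses Meics with eGFP at its C-terminal end. Whole embryos of 0 to 24 h, with males and females pooled, were sonicated to a size range of 200 to 800, precipitated with anti-GFP and sequenced (ChIP-seq). The labels number its 2 biological replicates 1 and 3, and both carry the transgene, so there is no comparison of conditions. The promoter that drives the transgene, its extent and its place in the genome are not stated in the labels. A peak list does not measure how much Meics the embryos make, so it is no check of the tag.

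Meics is short for Meiotic central spindle. It is a zinc-finger protein named for the central spindle, the bundle of microtubules between separating chromosomes, of male meiotic cells, and it belongs to the ZAD family, whose N-terminal zinc-finger-associated domain serves in protein contacts. Several other members of that family bind DNA near transcription start sites (TSSs). In ChIP-seq a peak caller marks regions rich in sequenced fragments and gives each a summit, the base of highest enrichment. The IDR compares the ranks of the regions in both replicates and keeps those that repeat. A replicate list holds peaks together with weaker background regions, so presence in it is a lower bar than presence in the IDR-thresholded list.

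On dm6, Meics spans chr3L:13962658-13964702 on the minus strand, 2045 bp with 2 exons and 1 annotated TSS at its right end, base 13964702. Its 5′ UTR occupies 13964630 to 13964702 and its stop codon 13962773 to 13962775. The gene ends 10 bp from the end of CG32137 (FBgn0052137), which is transcribed towards it on the plus strand and spans 13939250 to 13962647. At its other end lie ssp2 (FBgn0036389), named short spindle 2 after a mitotic spindle defect, and Nxf3 (FBgn0263232), of the nuclear RNA export factor family. Both are annotated from 13965203 to 13973067 on the plus strand, so their TSS is 501 bp from that of Meics and faces away from it. Farther right are CG13738, Hsc70-1, which encodes a cognate of the Hsp70 chaperones, and CG17364, whose TSS lies outside the neighbourhood. All 7 genes that overlap the neighbourhood are protein-coding.

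Sequences of both places that carry the result are shown, read from the plus strand of the RefSeq copy of this assembly, with the 11 bases centred on each summit in capitals. The CG32137 intron peak is the single IDR-thresholded region, chr3L:13957399-13957681, 283 bp with a GC content of 32.9%. The Meics-ssp2 intergenic stretch, chr3L:13964799-13965098, 300 bp with a GC content of 24%, holds a pair of summits found in replicate 1 alone, that nearer to Meics first.
CG32137 intron peak: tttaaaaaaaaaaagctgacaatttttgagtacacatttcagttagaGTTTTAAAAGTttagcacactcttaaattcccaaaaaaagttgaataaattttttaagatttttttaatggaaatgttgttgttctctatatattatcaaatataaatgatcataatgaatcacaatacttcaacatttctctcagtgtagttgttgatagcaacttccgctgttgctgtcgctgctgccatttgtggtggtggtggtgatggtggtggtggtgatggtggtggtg
Meics-ssp2 intergenic: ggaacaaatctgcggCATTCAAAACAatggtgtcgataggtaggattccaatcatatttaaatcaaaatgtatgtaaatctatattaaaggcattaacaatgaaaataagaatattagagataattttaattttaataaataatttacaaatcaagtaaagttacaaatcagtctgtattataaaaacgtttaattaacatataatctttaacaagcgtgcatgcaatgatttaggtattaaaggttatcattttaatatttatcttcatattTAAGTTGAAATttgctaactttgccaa

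No list had a summit inside the Meics gene. The IDR-thresholded peak lay on the 3′ side of Meics, in an intron of CG32137, with its summit at 13957451, 5207 bp beyond the 3′ end of Meics and 7251 bp from its TSS. Meics was nevertheless the gene with the nearest coding TSS. The authors' signal value at this peak was 861, which was 3.29 times the median of the IDR-thresholded list and ranked 701 of 7689. It was among the stronger regions of both replicates. Replicate 1 had its summit at the same base with a signal value of 364, rank 706 of 30000, and replicate 3 had it 6 bp away, at 13957445, with a signal value of 494, rank 725. Relative to the median of its own list the value was 10.6 in replicate 1 and 10.6 in replicate 3. Signal values are set by the caller within a list, so levels were not compared between lists.

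The sequence of this peak has an AT-rich part around the main summit and a GC-richer end. The window reaching 50 bp to each side of the summit had a GC content of 22.8%, against a median of 33.7% and quartiles of 27.7% and 41.6% over all 7689 IDR-thresholded summits. The right end is a run of 13 GGT or GAT triplets, 39 bp from 13957642 to 13957680. A second, weaker summit of the pooled list, 208 bp from the first at 13957659 with rank 19695, fell in this run. Replicate 1 listed it too, at 13957651 with rank 9667, and replicate 3 did not list it as a summit of its own.

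**Figure D1:**
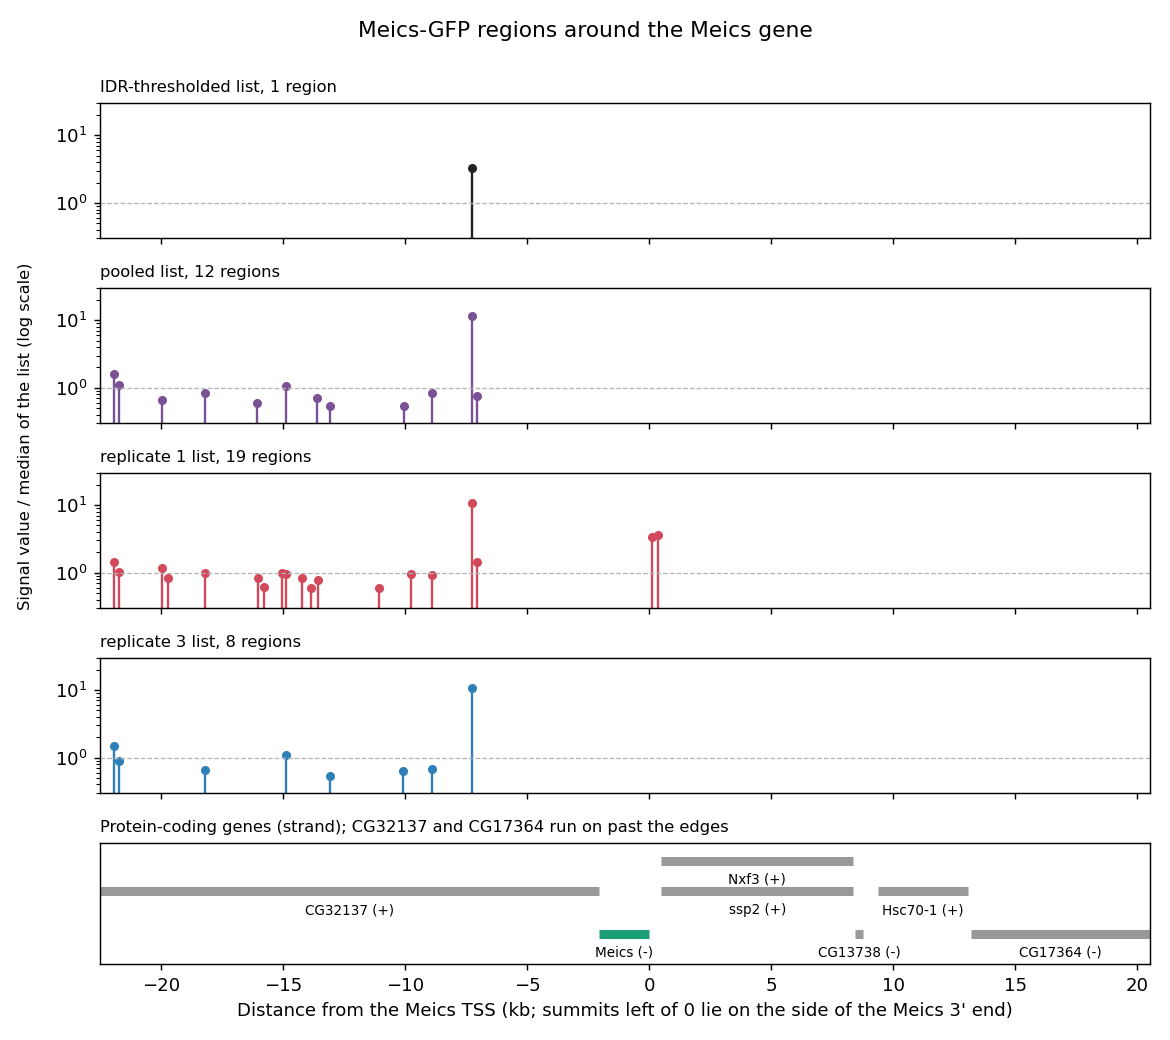
Signal value of each region divided by the median of its list (log axis, dashed line at 1) against the distance of its summit from the Meics TSS in kb, for the 4 lists, above the protein-coding genes. The intron peak 7251 bp from the TSS stands in all 4 lists, the pair right of 0 stands in replicate 1 alone, and nothing else lies right of the Meics TSS.

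The space between Meics and ssp2/Nxf3, 500 bp long, held summits in replicate 1 only. One region there, chr3L:13964594-13965043, had its summit at 13964819, 117 bp upstream of the Meics TSS, with a signal value of 114, rank 3738. The other, chr3L:13964852-13965301, had its summit at 13965077, 126 bp upstream of the shared ssp2 and Nxf3 TSS, with a signal value of 124, rank 3353. They were 3.33 and 3.61 times the median of the list, so both were well above its typical region. Both were also at the highest −log10 q-value the list gives, 3.99, which 4838 of its regions share. Both regions reach beyond the space that holds their summits. The one with its summit at 13964819 covers the Meics 5′ UTR, 13964630 to 13964702, and the first coding bases. The other runs past the ssp2 and Nxf3 TSS at 13965203. The summits were 258 bp apart and the regions overlapped by 192 bp, so they are not independent of each other.

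Replicate 3 and the pooled list had nothing at this place. The replicate 3 summit nearest to the Meics-proximal one was 7374 bp away, and the nearest pooled summit was 7160 bp away. A region at the foot of the replicate 3 list has a signal value of 22.4, and in the pooled list 37.4, so any enrichment there was either below those values or not called. Which of these applies was not tested, since the read coverage was not analysed here and the depth of the libraries is unknown. A peak list also cannot tell fragments of a transgene copy of Meics from those of the gene in its own place, so what the transgene adds at this promoter in either replicate was not tested.

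Few regions of this rank were missing elsewhere. Among the 1386 regions of replicate 1 at similar ranks, 2853 to 4238, 30 (2.16%) overlapped no region of replicate 3, 30 (2.16%) overlapped none of the pooled list and 23 (1.66%) overlapped neither. Missing regions were rarer among the strongest. From rank 1 up to rank 3738, the rank of the weaker of the pair, 48 regions of replicate 1 (1.28%) overlapped no region of replicate 3, 38 (1.02%) overlapped none of the pooled list, and 28 (0.749%) overlapped neither. The pair made up 2 of these 28, and no others of the 28 lay within 500 bp of each other. The mirror count for replicate 3 was 43 regions (1.15%) with no overlap in replicate 1, 34 (0.91%) with none in the pooled list and 23 (0.615%) with neither. Most such regions lay, as the pair did, at starts of coding genes. In replicate 1, 22 of the 28 (78.6%) had their summit within 500 bp of a coding TSS, against 50.3% of all 3738 regions, and in replicate 3 it was 20 of 23 (87%) against 48.4%. The limits on rank were set after the ranks of the pair were seen, and the 22 of replicate 1 include the pair itself.

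**Figure D2:**
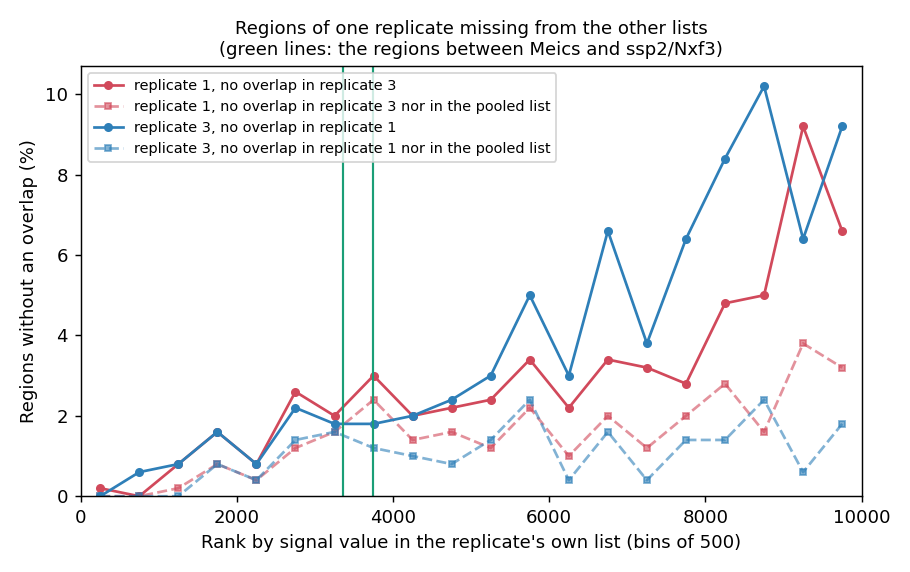
Percent of regions of one replicate with no overlapping region in the other replicate (solid) or in neither the other replicate nor the pooled list (dashed), in bins of 500 ranks by signal value. The green lines mark ranks 3353 and 3738 of the pair between Meics and ssp2/Nxf3, where 3% or less of the regions in a bin were missing.

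Apart from the pair, every region of the neighbourhood lay in introns of CG32137. Replicate 1 had 17 there, replicate 3 had 8 and the pooled list had 12. All but the intron peak were weak, with pooled ranks from 9468 to 27516 and signal values from 119 down to 40.8. In the pooled list the strongest of them was at the left edge, nearest to the TSS of CG32137. Its summit was at 13942763 in both replicates, with rank 9675 in replicate 1 and 10138 in replicate 3. Close by, a summit at 13942966 with rank 14794 in replicate 1 and one at 13942979 with rank 17054 in replicate 3 overlapped. The shared weak region closest to Meics, and with Meics as its nearest gene, had its summit at 13955790 with rank 16455 in replicate 1 and at 13955787 with rank 21705 in replicate 3.

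The replicates differed in how many regions they listed. In 6 places a summit of replicate 1 had a summit of replicate 3 within 150 bp, and in those 6 the shift was 13 bp at most. Ranks differed by 19 for the intron peak and by 463 to 7257 for the other 5, and replicate 1 had the better rank in 5 of the 6. Other regions overlapped with summits more than 150 bp apart. An example is 13954959 in replicate 1 and 13954626 in replicate 3, which lay 333 bp apart. By overlap of at least 1 bp, 9 of the 19 regions of replicate 1 (47.4%, Wilson interval 27.3 to 68.3) were matched in replicate 3, against 73.9% of all its regions. Some of these 9 shared a partner. The replicate 1 summits at 13957451 and 13957651 both matched the replicate 3 intron peak, and those at 13949636 and 13949836 both matched the region at 13949826. In the other direction 7 of 8 regions of replicate 3 (87.5%, interval 52.9 to 97.8) were matched in replicate 1, against 74.9% of all. The intervals cover counting error only, and neighbouring regions are not independent. The shares of all regions cover every rank. Of the 7689 strongest regions of replicate 1, 2.03% overlapped none of replicate 3, against 26.1% of all. Here 16 of the 19 regions of replicate 1 ranked 9667 to 28857, and 7 of the 8 of replicate 3 ranked 10138 to 27375. At ranks 9501 to 10000, 6.6% of replicate 1 regions overlapped none of replicate 3. In the other direction it was 9.2%. No share was computed for bins beyond rank 10000, so how far rank accounts for the shares in the neighbourhood was not tested. Of the 10 unmatched regions of replicate 1, 8 were weak intronic ones of rank 12555 to 28857 and 2 were the pair. The single unmatched region of replicate 3 had rank 27375.

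**Figure D3:**
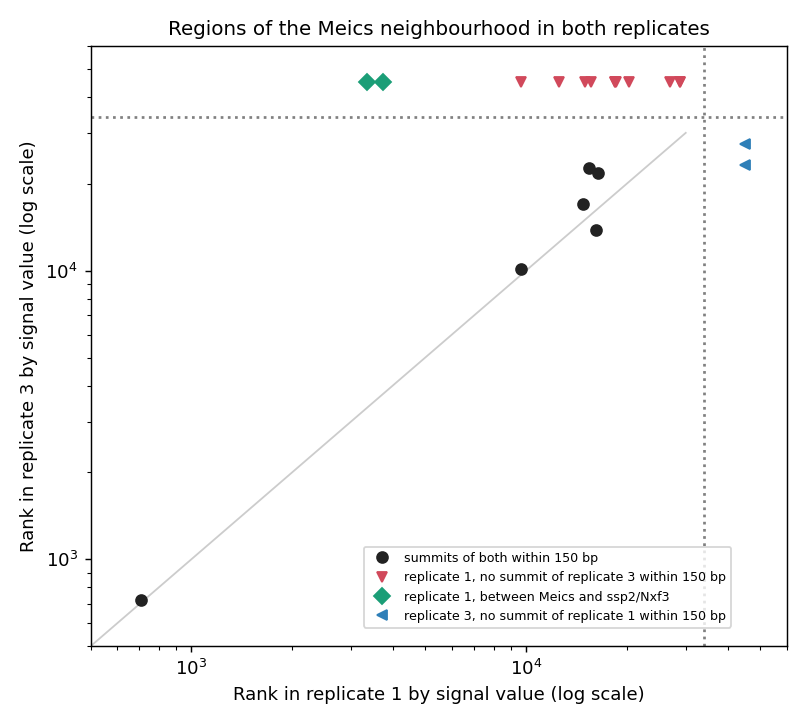
Ranks by signal value in replicate 1 and replicate 3 (log axes) of the regions in the Meics neighbourhood, with regions that have no summit of the other replicate within 150 bp in the margins beyond the dotted lines and equal ranks on the grey line. The intron peak sits at the lower left with ranks 706 and 725, and the pair between Meics and ssp2/Nxf3 sits in the upper margin, left of the other markers there.

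Set beside equally wide windows around 13942 coding genes, Meics had fewer IDR-thresholded summits than the median, at the lower quartile, and many of replicate 1. Its 1 IDR-thresholded summit compares with a median of 3 and quartiles of 1 and 5, and 29.9% of genes had as many or fewer. Its 12 pooled summits compare with a median of 10, and 63.5% of genes had as many or fewer. Its 8 of replicate 3 compare with a median of 11, and 37% of genes had as many or fewer. Its 19 of replicate 1 compare with a median of 10, and 91% of genes had as many or fewer. These windows overlap between neighbouring genes, so the shares are descriptions.

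**Figure D4:**
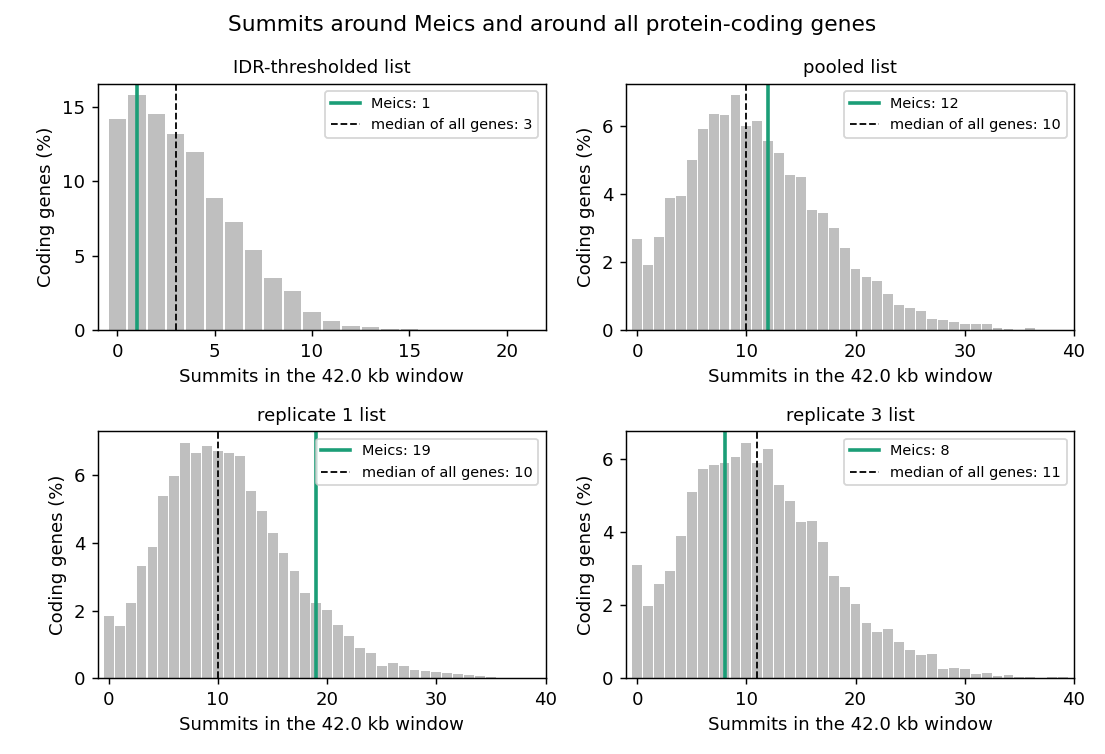
Percent of protein-coding genes by the number of summits in a window as wide as the Meics neighbourhood, for the 4 lists, with Meics as a green line and the median of all genes as a dashed line. Meics lies below the median with 1 IDR-thresholded summit against 3, and above it in replicate 1 with 19 against 10.

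Right of Meics, no list but that of replicate 1 had a summit in the neighbourhood. In the pooled list no summit fell between 13957659 and 13986541, a stretch of 28882 bp. Of the 29994 gaps between neighbouring pooled summits 441 (1.47%) were as long, and the median gap was 1524 bp. Replicate 3 had a gap of 29103 bp at the same place, and 419 of its 29994 gaps (1.4%) were as long. In the IDR-thresholded list the gap was 29090 bp, and 1172 of its 7683 gaps (15.3%) were as long. Counted by genes, 13.9% of coding genes had a TSS in a pooled gap of that length or longer, 14% in replicate 3 and 49.4% in the IDR-thresholded list. In replicate 1 the pair split the stretch into 7168 bp and 21438 bp. The pooled gap holds the TSSs of 5 coding genes, namely Meics, ssp2, Nxf3, CG13738 and Hsc70-1, and 163 of the 441 gaps of that length (37%) hold as many. The RefSeq assembly has 0 undetermined bases in the neighbourhood. In that assembly 11.7% of the 20 kb right of Meics, 3.33% of Meics and 20.3% of the 20 kb left of it are in lower case, the mark of repeats, against 21.2% of arm 3L.

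By gene starts, only CG32137 of the 7 genes (1 of 7) had an IDR-thresholded summit within 500 bp of its TSS, against 26.1% of all coding genes. That peak lies 3387 bp outside the neighbourhood, with its summit at 13939271, a signal value of 3288 and rank 43, and it ranked 45 in replicate 1 and 40 in replicate 3. In the pooled list it was 2 of 7 genes, CG32137 and CG17364, against 46.2% of all, and in replicate 3 the same 2, against 48.5%. In replicate 1 it was 5 of 7 genes, against 45.9%, the added ones being Meics, ssp2 and Nxf3. With 7 genes, of which ssp2 and Nxf3 share a start, none of these counts is read as a departure from the share of all genes.

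The distance from the Meics TSS to the nearest summit was 7251 bp in the IDR-thresholded list, against a median of 4237 bp over all coding genes, and 37.3% of genes were at least as far. It was 7043 bp in the pooled list, against 764 bp, with 14.6% as far, and 7257 bp in replicate 3, against 591 bp, with 14.2% as far. In replicate 1 it was 117 bp, against 743 bp, with 76.9% of genes at least as far. Many genes share the Meics arrangement of a coding TSS facing away at 501 bp or less, and 3820 were counted. Of these 3820, 45% had an IDR-thresholded summit within 500 bp of their TSS and 2101 had none. In replicate 1, 62.4% had one, as Meics did, and in replicate 3, 65.5% had one, which Meics did not.

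The printed places, every summit of the neighbourhood and all IDR-thresholded summits were searched, on either strand, for 7 short motifs within 50 bp of each. These were TATCGATA and CGATA (which overlap), GTGACGAA, GTAACGAA, TATAAA, GGTCACACT and GAGAG. None of the 7 was within 50 bp of the IDR-thresholded summit. Near the replicate 1 summit next to Meics, CGATA was found 15 bp away, at 13964832 to 13964836, in the printed intergenic sequence. Around the summit next to ssp2 and Nxf3 none was found. Farther than 50 bp from the summits, the printed intergenic sequence also holds TATAAA at 13964978 to 13964983. The printed intron peak likewise holds TATAAA at 13957547 to 13957552 and GAGAG at 13957585 to 13957589. Over the whole neighbourhood, TATAAA was within 50 bp of 2 summits in each of the pooled, replicate 1 and replicate 3 lists. Among them was the shared weak region at 13955790 in replicate 1 and 13955787 in replicate 3. CGATA was near 1 pooled summit and 2 of replicate 1, that next to Meics included, and GAGAG near 1 of replicate 1. The other motifs were near none. CGATA was in 14.4% of windows at all IDR-thresholded summits, 11.6% of windows 500 bp beside them and 23.6% of windows of the same length at coding TSSs. The longer TATCGATA was in 1.46%, 0.26% and 4.48% of these windows, GTGACGAA in 1.69%, 0.143% and 0.255%, and TATAAA in 22.1%, 10.4% and 15.5%. GTAACGAA was in 0.988%, 0.156% and 0.223%, GGTCACACT in 0.689%, 0.156% and 3.64%, and GAGAG in 10.4%, 13.8% and 12.7%. A match says only that the letters are there.

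Meics can also be set among its relatives by structure and by name. The list of 16 ZAD zinc-finger genes, Meics included, had an IDR-thresholded summit within 500 bp of the TSS in 5 of 16 (31.2%), against 26.1% of all coding genes. The strongest was at M1BP, a factor that binds core promoters, with a signal value of 1082 and rank 483. It was followed by trem, needed for meiotic double-strand breaks (529), Sry-delta, an activator of bicoid (457), and prg (396). Meics, at 7251 bp, was farther from a summit than 13 of the other 15, and nom and kipf were farther still. The list of 18 central spindle and cytokinesis genes had a summit at 10 of 18 (55.6%), against the same 26.1%. Its strongest were at fws, a Golgi complex subunit needed for male meiotic cytokinesis (2039), sqh, the myosin regulatory light chain (892), sti, the citron kinase (738), and tum, a subunit of centralspindlin (544). These lists were written with results of these data known.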

How the data were processed

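Per the labels, the authors deposited, for dm6 and dm3, a list per replicate that mixes peaks with background, a pooled list and an IDR-thresholded list. No aligner, no peak caller and no IDR cutoff is given in the sources used here. The deposited signal value of a region (column 7) is the authors' own enrichment and ranked regions within a list. The deposited −log10 q-value has a ceiling and was not used for ranking. The dm3 lists were not used. Read depth is unknown. Control libraries were not analysed here.

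Positions count from 1. Summits are the region's start plus its offset. Genes came from Ensembl, BDGP release 6.54, and sequence from RefSeq on the same assembly as dm6. Regions were matched by overlap of at least 1 bp. Gaps run between neighbouring summits on an arm. A repeat needed at least 5 GGT or GAT triplets. Nothing was tested, as there is 1 group of 2 replicates. The members and lists were chosen with earlier results of these data known. The text may name every gene overlapping the neighbourhood, the coding gene with the TSS nearest to each summit it describes, any gene holding that summit, and up to 4 list members with the highest signal. One listed symbol, bru, fits more than 1 gene and was left out. The matching was tested on simulated data. Scripts ran in Python 3.11.15 with pandas 2.3.3, numpy 2.4.6 and scipy 1.17.1, and figures were drawn with matplotlib 3.10.9.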

Additional observations from a re-analysis of the deposited data

How the results depend on the processing

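No paired analysis was possible because both samples belong to 1 group. Each replicate alone stands in as the 7689 strongest regions of its list. Without one replicate, the summits in the neighbourhood ranged from 1 to 3, the genes with a summit at their TSS from 1 to 4, and the distance from the Meics TSS from 117 bp to 7257 bp. The values 3, 4 and 117 bp are those of replicate 1 alone, where Meics, ssp2 and Nxf3 gain the summit pair, and replicate 3 alone gave 1, 1 and 7257 bp. With 50 kb on either side there were 12 summits in place of 1, 7 of 17 genes in place of 1 of 7, and 70.6% of replicate 1 regions matched in place of 47.4%. The share of replicate 3 regions matched went to 100% with 10 kb on either side (3 of 3) and with the strongest regions only (1 of 1), in place of 87.5%. The upper part of the IDR-thresholded list, overlap in place of the summit, promoter windows of 200 and 1000 bp and all annotated genes left the count or distance they bear on at 1, 1 of 7 and 7251 bp. Stricter rules of matching gave 31.6% to 42.1% for replicate 1 and 75% for replicate 3. Unknown depth, control libraries not analysed here and 2 replicates limit all of these. The cause of the difference between replicates at the Meics TSS was not tested.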

Other observations

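Regions that replicate 1 listed up to rank 3738 and that were missing from both replicate 3 and the pooled list included, by nearest coding TSS, those at RpS26, a ribosomal protein gene (signal value 155, rank 2528, summit 123 bp upstream), SMC5, of the SMC5/6 complex (131, rank 3118, 115 bp upstream), and Larp7 (121, rank 3454, 154 bp upstream). They were picked after their values were seen, as further cases like that of Meics, whose own summit was 117 bp upstream with a signal value of 114. Right of the summit-free stretch, the first IDR-thresholded summit, at 13986541, lay in an intron of CG17364, 79 bp upstream of the CG17362 TSS, with a signal value of 242 and rank 4258. It ranked 4854 in replicate 1 and 4111 in replicate 3, weaker ranks than those of the Meics pair in replicate 1.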
